A study of Mus musculus with 3 samples.

Results

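The transcripts described here are those of 8 genes for inhibitors of cysteine proteases, chosen by symbol from the 16072 named genes measured in bone marrow (BM) Ly6G+ myeloid cells. They are the stefin A genes Stfa1, Stfa2, Stfa2l1, Stfa3 and BC100530, the stefin B gene Cstb, and the cystatin genes Cst3 and Cst7. C57BL/6 mice had received B16.F10 melanoma cells subcutaneously 1 week before an intramuscular injection of an adeno-associated virus (AAV) vector, so tumour cells had been given to the controls as well. AAV-IL-27 carries mouse IL-27, with its EBI3 and p28 chains linked, under the broadly active CAG promoter, and AAV-Ctrl is the empty vector. Cells were collected 3 weeks after the vector and profiled by RNA-seq of oligo-dT-enriched RNA, as 2 AAV-Ctrl libraries and 1 AAV-IL-27 library. The comparison addresses which transcripts of BM myeloid cells differed after exposure to IL-27. With 1 AAV-IL-27 library analysed there was no replicate error to test against, and the differences below describe these 3 libraries. Where 3 values follow each other, they are given in the order AAV-Ctrl 1, AAV-Ctrl 2, AAV-IL-27.

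Stefins and cystatins are tight, reversible inhibitors of papain-like cysteine proteases, chiefly the lysosomal cathepsins. Stefins lack a signal peptide and act inside the cell, whereas cystatins are secreted or routed to lysosomes. Mice carry a multiplied family of stefin A genes, whose transcripts are abundant in granulocytes.

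The 5 stefin A genes lie within 298.6 kb of chromosome 16 (GRCm38, the mm10 build: chr16:36156811-36455392). Stfa2l1 (chr16:36156811-36161948) and Stfa1 (chr16:36277148-36285371) are on the plus strand, and BC100530 (named Cstdc5 in RefSeq; chr16:36359382-36367570), Stfa2 (chr16:36403946-36408363) and Stfa3 (chr16:36450537-36455392) are on the minus strand. Each has 3 exons. Cstb is on chromosome 10 (chr10:78425670-78427622), and Cst3 (chr2:148871722-148875512) and Cst7 (chr2:150570415-150578944) are on chromosome 2. Several stefin A genes are near-identical copies, which bears on how far their values can be told apart. Over their coding sequences Stfa1 and BC100530 were 97.9% identical, and Stfa2 and Stfa2l1 were 96.4% identical. Stfa3 was 79.3% to 81.6% identical to the other 4. The first 60 coding bases, read 5′ to 3′ from the reference genome, show how close the copies are. Stfa2 and Stfa3 are set against Stfa2l1, the gene with the highest level and the same coding length of 309 bases, and BC100530 is set against Stfa1, with which it shares a coding length of 291 bases. Capitals mark bases that differ from the gene each is set against.
Stfa2l1 (chr16:36156837-36156896, plus strand): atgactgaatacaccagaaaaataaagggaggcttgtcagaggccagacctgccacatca
Stfa2 (chr16:36408274-36408333, minus strand): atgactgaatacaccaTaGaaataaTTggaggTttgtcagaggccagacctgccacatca
Stfa3 (chr16:36455305-36455364, minus strand): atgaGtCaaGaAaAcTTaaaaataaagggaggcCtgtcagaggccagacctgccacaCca
Stfa1 (chr16:36277196-36277255, plus strand): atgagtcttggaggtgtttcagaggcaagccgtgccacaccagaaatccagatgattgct
BC100530 (chr16:36367442-36367501, minus strand): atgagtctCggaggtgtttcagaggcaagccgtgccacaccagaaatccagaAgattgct
In this window Stfa2 differed from Stfa2l1 at 5 bases, Stfa3 differed from Stfa2l1 at 9, and BC100530 differed from Stfa1 at 2. Of the 50-base runs of each transcript, 33.5% in BC100530, 26.9% in Stfa1, 24.6% in Stfa2l1 and 15.9% in Stfa2 also occurred in the transcript of another gene. Stfa3, Cstb, Cst3 and Cst7 shared no such run. How the authors' counting treated reads in shared stretches is not given in the sources used here, so single values of Stfa1, BC100530, Stfa2 and Stfa2l1 are uncertain and sums over copies are given with them.

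All 5 stefin A genes were higher after AAV-IL-27 than in both AAV-Ctrl libraries, as were 38.9% of the 9130 genes that averaged 1 FPKM or more. Values are in FPKM, the number of sequenced fragments per kilobase of transcript, scaled to the mapped fragments of the library, which allows levels to be compared between genes. Summed over the 5 genes, the level was 671 FPKM for AAV-Ctrl 1, 609.06 for AAV-Ctrl 2 and 962.12 for AAV-IL-27. The AAV-IL-27 library was thus at 150% of the AAV-Ctrl mean of 640 ± 43.8 FPKM (SD, n = 2). On the log2(FPKM + 1) scale, used for every difference below, the sum was 0.59 above the AAV-Ctrl mean, 0.52 above AAV-Ctrl 1 and 0.66 above AAV-Ctrl 2. The AAV-Ctrl libraries differed from each other by 0.14. In bulk RNA, more cells with a transcript and more transcript per cell cannot be told apart.

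Stfa2l1 made up most of the stefin A sum. It was at 544.49 and 489.36 FPKM after AAV-Ctrl and at 770.03 FPKM after AAV-IL-27. The AAV-IL-27 value lay outside the AAV-Ctrl range and was 0.58 above the AAV-Ctrl mean, with 0.50 against AAV-Ctrl 1 and 0.65 against AAV-Ctrl 2. By FPKM, Stfa2l1 was the gene ranked 114 and 124 of all named genes in the AAV-Ctrl libraries and 75 in AAV-IL-27. Its near-identical partner Stfa2 was at 24.61, 23.53 and 34.59 FPKM, a difference of 0.51 from the AAV-Ctrl mean. Fragments exchanged between Stfa2l1 and Stfa2 would change the sum of the pair little. Both also shared 50-base runs with Gm49652, and Stfa2 with Gm4758, an exchange that the sum does not cover. The sum of Stfa2l1 and Stfa2 was 569.1, 512.89 and 804.62 FPKM, a difference of 0.57.

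The second pair of copies showed a similar difference, with a wider spread between the AAV-Ctrl libraries for BC100530 than for Stfa1. Stfa1 was at 51.61 and 54.49 FPKM after AAV-Ctrl and at 86.41 FPKM after AAV-IL-27, which was 163% of the AAV-Ctrl mean. Its difference of 0.69 was the largest of the 8 genes. BC100530 was at 28.44 FPKM for AAV-Ctrl 1, 20.12 for AAV-Ctrl 2 and 35.99 for AAV-IL-27. The AAV-Ctrl libraries differed by 0.48 for BC100530, more than AAV-IL-27 differed from AAV-Ctrl 1 (0.33) and less than it differed from AAV-Ctrl 2 (0.81). Stfa1 and BC100530 also shared 50-base runs with BC117090, a further gene of the region, and BC100530 with Csta1. The sum of the pair does not cover such an exchange. Over their coding sequences BC100530 and BC117090 were 95.2% identical. Summed over Stfa1 and BC100530, the levels were 80.05, 74.61 and 122.4 FPKM. This sum was 0.66 above the AAV-Ctrl mean, with 0.61 and 0.71 against the single AAV-Ctrl libraries, and it separated the libraries more evenly than BC100530 alone.

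Stfa3 shares no 50-base run with another gene and is therefore the stefin A member whose value is least open to exchange with a copy. It was at 21.85 and 21.56 FPKM after AAV-Ctrl and at 35.10 FPKM after AAV-IL-27, or 162% of the AAV-Ctrl mean. The difference was 0.66 against AAV-Ctrl 1 and 0.68 against AAV-Ctrl 2, while the AAV-Ctrl libraries differed by 0.02.

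The make-up of the stefin A sum changed little between libraries. Stfa2l1 accounted for 81.1% of it for AAV-Ctrl 1, 80.3% for AAV-Ctrl 2 and 80.0% for AAV-IL-27. Stfa1 accounted for 7.69%, 8.95% and 8.98%, and Stfa2, Stfa3 and BC100530 for between 3.26% and 4.24% each. Without Stfa2l1, the other 4 genes summed to 126.51, 119.7 and 192.09 FPKM, a difference of 0.64. The plot of FPKM by gene and library shows the AAV-IL-27 value above both AAV-Ctrl values for every stefin A gene, on levels that span more than an order of magnitude.

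**Figure D1:**
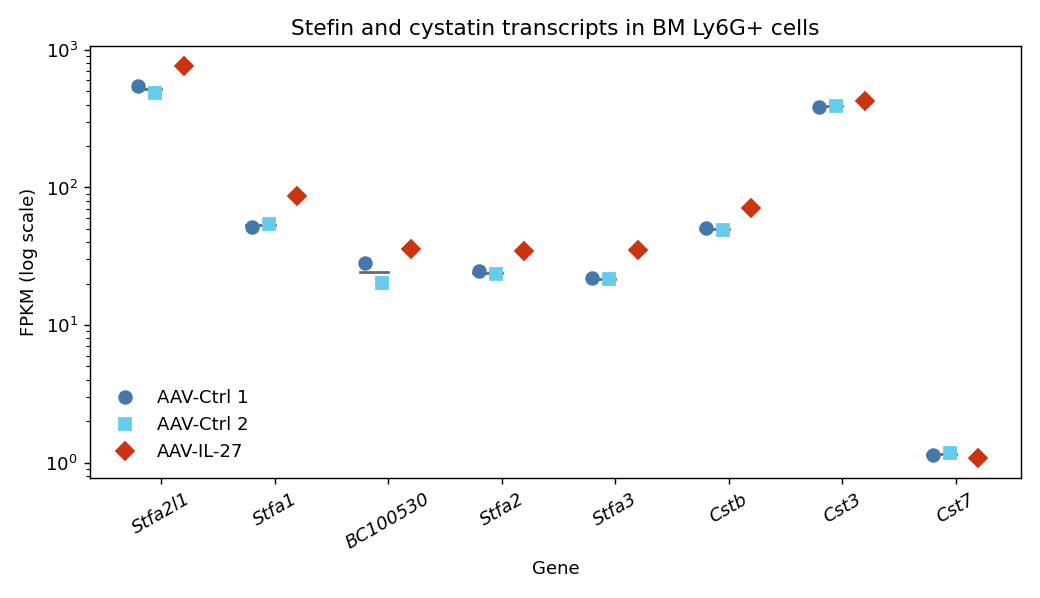
FPKM of the 8 genes on a log axis, with 1 point per library (circles, AAV-Ctrl 1; squares, AAV-Ctrl 2; diamonds, AAV-IL-27) and a short bar at the AAV-Ctrl mean. The AAV-IL-27 point lies above both AAV-Ctrl points for 7 genes and below both for Cst7, and the AAV-Ctrl points lie farthest apart for BC100530.

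Cstb encodes stefin B, which is found in most cell types, and loss of its human counterpart causes a progressive myoclonus epilepsy. Cstb was at 50.91 and 49.19 FPKM after AAV-Ctrl and at 71.21 FPKM after AAV-IL-27, or 142% of the AAV-Ctrl mean of 50.05 ± 1.22 FPKM (SD, n = 2). The difference was 0.50, of the same size as that of Stfa2 although Cstb is on another chromosome and was at most 63.3% identical to a stefin A coding sequence.

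Of the cystatins, Cst3 differed by 0.12, less than any stefin, and Cst7 was too low for a difference of that kind to be read. Cst3 encodes cystatin C, a secreted inhibitor made by most nucleated cells. It was the most abundant of the 8 transcripts after Stfa2l1, at 387.70, 393.86 and 425.50 FPKM. The AAV-IL-27 value was above both AAV-Ctrl values, but by only 0.13 and 0.11. Cst7 encodes cystatin F, which is routed to lysosomes and inhibits cathepsin C. It was at 1.14, 1.18 and 1.08 FPKM, the lowest level of the 8 genes. These values correspond to an estimated 20, 21 and 19 fragments, with 95% Poisson intervals of 12.2 to 30.9, 13 to 32.1 and 11.4 to 29.7. A Cst7 level at 150% of the AAV-Ctrl mean, as seen for the stefin A sum, would still lie within the AAV-Ctrl intervals, so a difference of that size was not detectable at this depth.

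For the stefins the depth was not the main limit. About 19050000, 19350000 and 19200000 mapped fragments were estimated from the spacing of the lowest FPKM values. At that depth Stfa2l1 rested on about 3620, 3305 and 5160 fragments, with 95% Poisson intervals of 3503 to 3740, 3193 to 3420 and 5020 to 5303. Stfa3, with the fewest fragments of the stefins, had about 142, 143 and 230. Its intervals of 120 to 167 and 121 to 168 in the AAV-Ctrl libraries did not meet that of 201 to 262 in AAV-IL-27. For BC100530 the estimates were 297 (264 to 333), 214 (186 to 245) and 379 (342 to 419) fragments, and the intervals of the AAV-Ctrl libraries did not meet each other either. These intervals cover counting error only, not differences between mice.

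Against all genes, the stefins stood toward the upper end of the differences without reaching the larger of 2 thresholds. Of the 8 genes, 7 were above both AAV-Ctrl libraries in AAV-IL-27, against 38.9% of the 9130 genes. Cst7 was below both, as were 41.9% of the 9130. At a difference of at least 0.5 from each AAV-Ctrl library, 1.57% of all genes were higher and 7.01% were lower, and 2 of the 8 genes, Stfa1 and Stfa3, were higher and 0 were lower. At a difference of at least 1, 0.307% of all genes were higher and 2.32% were lower, and 0 of the 8 genes passed in either direction. The differences from the nearer AAV-Ctrl library were past the threshold of 0.5 for Stfa1 (0.66) and Stfa3 (0.66), just short of it for Stfa2l1 (0.499), Cstb (0.476) and Stfa2 (0.475), and farther below for BC100530 (0.329). Without AAV-Ctrl 1 the count above 0.5 was 6 in place of 2, and 2.57% of all genes passed.

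The median difference of the 8 genes was 0.54, against -0.01 for all 9130 genes. Ordered from the highest difference, Stfa1 was at place 92 of 9130, Stfa3 at 107, Stfa2l1 at 152, BC100530 at 159, Stfa2 at 197, Cstb at 204 and Cst3 at 2264. The spread between the AAV-Ctrl libraries gives a scale for these values. Between them, the absolute difference had a median of 0.087 over the 9130 genes, and 1% of genes differed by more than 0.571. The differences of Stfa1, Stfa3 and, narrowly, Stfa2l1 from the AAV-Ctrl mean were beyond that value, and those of BC100530, Stfa2 and Cstb were not. Low genes widen that spread. Among genes within 2-fold of each stefin's own level, 1% differed between the AAV-Ctrl libraries by more than 0.478 for BC100530 and for Stfa2. The corresponding values were 0.425 for Cstb, 0.448 for Stfa1, 0.481 for Stfa3 and 0.401 for Stfa2l1. By its difference from the AAV-Ctrl mean, each of the 6 stefins was beyond its value. Against the nearer AAV-Ctrl library, BC100530 (0.329) and Stfa2 (0.475) were not beyond theirs, and the other stefins were. For BC100530, the AAV-Ctrl libraries also differed from each other by slightly more than its value.

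**Figure D2:**
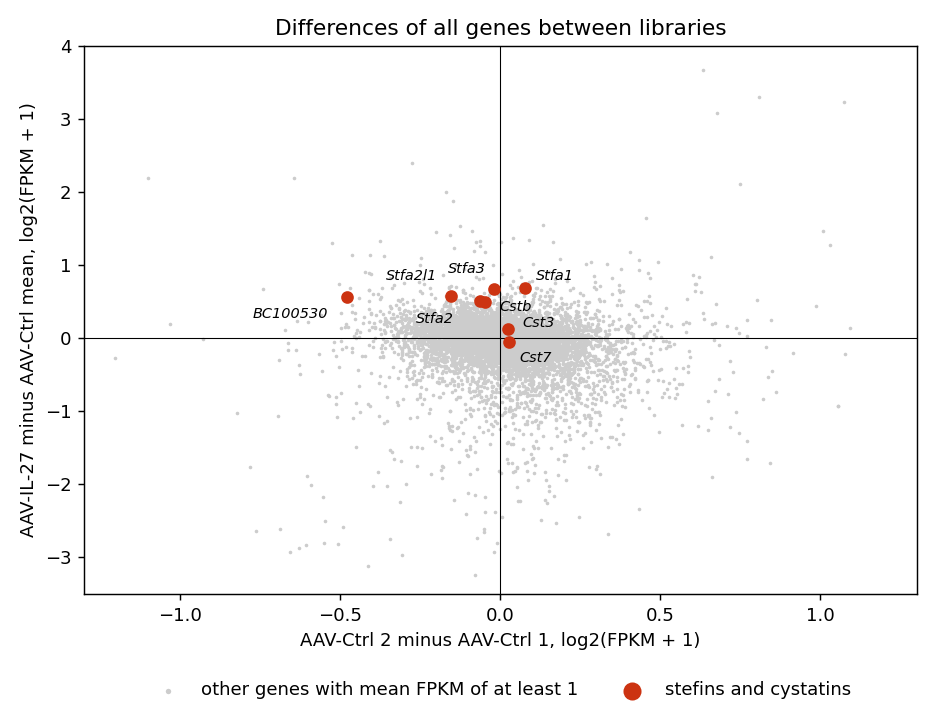
Difference between AAV-IL-27 and the AAV-Ctrl mean (vertical axis) against the difference between the AAV-Ctrl libraries (horizontal axis), both in log2(FPKM + 1), for 9130 genes (grey) and the 8 stefins and cystatins (red). 2 genes lie outside the axes. The stefins sit between 0.50 and 0.69 on the vertical axis, and BC100530 lies at -0.48 on the horizontal axis.

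The stefin A region holds further genes of the family, which gave a look at the same measure outside the 8 genes. Of 29 other genes of the cystatin families listed for this purpose, 7 were in the table and 2 of them averaged 1 FPKM or more, both in this region. Gm5483 (Cstdc4 in RefSeq) was the more abundant, at 268.24 and 248.13 FPKM after AAV-Ctrl and 398.42 FPKM after AAV-IL-27. Its difference of 0.63 resembled that of Stfa2l1, with whose transcript it shares no 50-base run, although Gm5483 and 2010005H15Rik (Csta2) are 96.9% identical. Summed, Gm5483 and 2010005H15Rik were at 268.24, 249.26 and 400.02 FPKM, as 2010005H15Rik was listed at 0 in AAV-Ctrl 1 and at 1.13 and 1.60 FPKM in the other libraries. Gm5416 (Csta3) was at 6.22, 7.57 and 11.03 FPKM, a difference of 0.61. BC117090 (Cstdc6) was at 0.67, 0.81 and 0.99 FPKM, or about 4, 5 and 6 fragments, too few to separate the libraries. Kng1, Kng2 and Fetub, which encode secreted plasma proteins of the cystatin superfamily, were each below 0.2 FPKM in every library. All 9 measured stefin A genes of the region were above both AAV-Ctrl libraries. Of these, 7 averaged 1 FPKM or more, and among all 9130 genes at that level 38.9% were above both. The direction of the other 2, BC117090 and 2010005H15Rik, cannot be read, the latter at about 0, 12 and 17 fragments. The 9 genes summed to 946.13, 866.7 and 1374.16 FPKM, a difference of 0.60.

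Genes next to the stefin A region did not show a difference of that size. Inside the region or within 500 kb on either side, 18 other genes were measured and 12 averaged 1 FPKM or more. Gm6815 lies inside the region, at 0.03, 0.05 and 0.08 FPKM, and is not among the 12. Of these 12, 7 were above both AAV-Ctrl libraries, 3 were below both, and 0 passed a difference of 0.5 in either direction. Over all 9130 genes, 38.9% were above both and 41.9% below both, and 1.57% were at least 0.5 higher and 7.01% at least 0.5 lower. At those shares, few or none of 12 genes would pass 0.5. The median of the 12 neighbours was 0.07 and their range -0.29 to 0.27. The lowest was Cd86, a costimulatory molecule, at 7.74, 7.68 and 6.10 FPKM, and the highest was Parp14, an interferon-inducible gene, at 15.68, 18.04 and 20.51 FPKM. Both are named as the ends of the range and were chosen after their values were seen. The 7 stefin A genes averaging 1 FPKM or more ranged from 0.51 to 0.69 and did not overlap the neighbours.

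**Figure D3:**
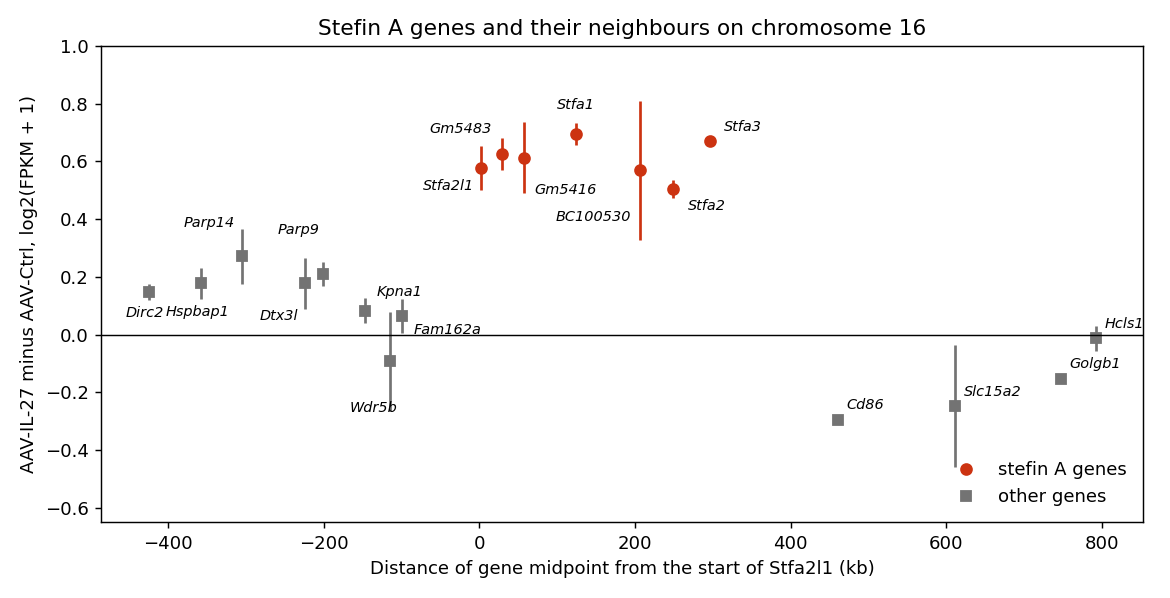
Difference between AAV-IL-27 and the AAV-Ctrl mean in log2(FPKM + 1) for genes averaging 1 FPKM or more, by distance of the gene's midpoint from the start of Stfa2l1 in kb. Vertical lines run between the differences from each AAV-Ctrl library. The 7 stefin A genes (red) lie between 0.51 and 0.69 and the 12 other genes (grey) between -0.29 and 0.27.

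The promoters of the stefin A genes are related as well. A window from 250 bases before to 50 bases after the annotated start, from RefSeq on the same build, was given for 7 of the 8 genes, all but Cstb. Aligned over this window, Stfa2l1 was 91.7% identical to Stfa2, 82.7% to Stfa3 and 80.3% to Stfa1. The windows of Stfa2l1 and Stfa1 are printed because these genes had the highest level and the largest difference of the 8 genes. Capitals mark a match to the C/EBP motif TTGCNNAA, bound by the factors that drive granulocyte genes.
Stfa2l1 (chr16:36156561-36156860, plus strand): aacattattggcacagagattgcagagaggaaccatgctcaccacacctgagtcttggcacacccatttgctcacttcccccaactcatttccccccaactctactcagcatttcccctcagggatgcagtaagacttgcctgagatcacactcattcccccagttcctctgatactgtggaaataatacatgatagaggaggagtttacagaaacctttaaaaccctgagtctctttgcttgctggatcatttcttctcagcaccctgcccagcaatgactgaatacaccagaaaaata
Stfa1 (chr16:36276898-36277197, plus strand): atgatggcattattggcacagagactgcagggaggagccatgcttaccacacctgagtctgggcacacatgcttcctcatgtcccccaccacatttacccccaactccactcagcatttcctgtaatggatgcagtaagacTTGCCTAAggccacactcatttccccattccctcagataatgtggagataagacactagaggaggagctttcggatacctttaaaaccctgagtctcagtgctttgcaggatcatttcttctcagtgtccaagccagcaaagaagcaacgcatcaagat
The C/EBP letters occurred in 3 of the 7 windows, 109 bases before the start in Stfa1, 88 bases before it in BC100530 and 3 bases before it in Cst7, and in 10.8% of 32851 promoter windows of the genome. The windows of Stfa1 and BC100530 were 89.7% identical and held the same matching letters, so their matches are not separate observations. The Stfa2l1 window held no match. On either strand, 0 of the 7 windows held the STAT motif TTCNNNGAA, which 8.30% of all windows held, the interferon response element core, a pair of GAAA runs 2 bases apart (3.44%), the PU.1 motif GAGGAAGT (3.20%) or the TATA letters TATAAA (13.6%). Windows were also given for further stefin A genes of the region, making 8 with those above. Of these 8, 1 held the STAT motif, 128 bases before the start in Gm5483. The C/EBP letters occurred in 3 of the 8, with the same matching letters in Stfa1, BC100530 and Gm5416, and the other motifs in 0. None of the 5 motifs contains another, though matches may overlap, and a match describes the letters of a window and not binding.

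The proteases that stefins and cystatins inhibit had lower or similar values in AAV-IL-27. Of 11 cysteine proteases, 10 cathepsins and legumain, 9 averaged 1 FPKM or more. Among these 9, 0 were above both AAV-Ctrl libraries, 8 were below both, 4 were at least 0.5 lower than each and 2 at least 1 lower. Over all 9130 genes the shares were 38.9% above both, 41.9% below both, 7.01% at least 0.5 lower and 2.32% at least 1 lower. Their median difference was -0.11, with a range of -1.76 to 0.00. The 11 genes summed to 391.03, 404.83 and 307.02 FPKM, so AAV-IL-27 was at 77.2% of the AAV-Ctrl mean.

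Within the proteases the lower values were unevenly spread. Ctsb, the lysosomal endopeptidase and carboxydipeptidase cathepsin B, was at 129.52 and 135.43 FPKM after AAV-Ctrl and at 71.41 FPKM after AAV-IL-27, a difference of -0.88. Lgmn, the asparaginyl endopeptidase legumain, which cystatin C and cystatin F also inhibit, was at 28.52, 28.38 and 14.40 FPKM (-0.94). Ctsc, the cathepsin that activates granule serine proteases and a target of cystatin F, was at 10.11, 9.43 and 4.17 FPKM (-1.06). The lowest difference was that of Ctsk, the collagen-degrading cathepsin of osteoclasts, at 4.95, 2.46 and 0.34 FPKM. By contrast Ctsh, an aminopeptidase, was at 93.13, 97.89 and 95.46 FPKM, and Ctss, which cleaves the invariant chain of MHC class II, was at 59.63, 64.09 and 58.22 FPKM. The summed FPKM of the 8 inhibitors over that of the 11 proteases was 2.84, 2.60 and 4.76, a ratio of transcript levels that says nothing of protein amounts.

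**Figure D4:**
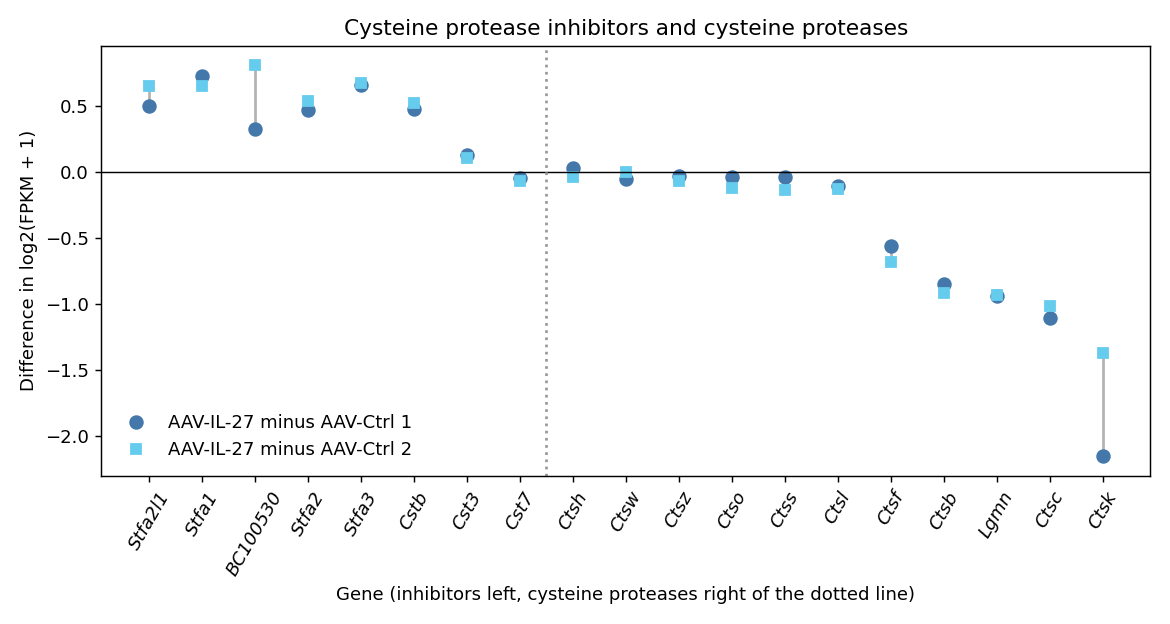
Difference in log2(FPKM + 1) between AAV-IL-27 and each AAV-Ctrl library (circles, AAV-Ctrl 1; squares, AAV-Ctrl 2) for the 8 inhibitors and, right of the dotted line, 11 cysteine proteases ordered by difference. The 6 stefins lie between 0.33 and 0.81, and Ctsb, Lgmn, Ctsc, Ctsk and the low-abundance Ctsf lie below -0.5 against both.

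Granule proteins with a cystatin-like fold did not follow the stefins. Ngp, neutrophilic granule protein, was at 25644, 24728 and 24209 FPKM, and Camp, the cathelicidin precursor, was at 7233.65, 7293.01 and 7085.36 FPKM. Both were below the AAV-Ctrl libraries in AAV-IL-27, by 0.06 and 0.04 against the mean.

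Cell-type markers moved between the libraries, and their part in the differences above was not tested. The cells carried the label's marker, with Ly6g at 711.76, 766.11 and 586.29 FPKM, and 10 neutrophil markers summed to 144360, 140956 and 136638 FPKM with a median difference of -0.07. For the counts that follow, 38.9% of all 9130 genes were above both AAV-Ctrl libraries, 41.9% below both and 2.32% at least 1 lower. For 5 early granulocyte markers the sums were 64.46, 76.9 and 89.23 FPKM, with all 5 above both AAV-Ctrl libraries and a median of 0.29. For these 5, AAV-Ctrl 2 was above AAV-Ctrl 1 by a median of 0.24. For 6 monocyte markers the sums were 1110, 1171 and 1237 FPKM, with 5 above both and a median of 0.49. Most of that sum was Ly6c2, at 1023.13, 1086.23 and 1145.19 FPKM, a difference of 0.12. The larger differences were in Ccr2, F13a1, Ms4a6c and Fn1, none of them above 5.81 FPKM. Among 7 dendritic cell markers, only Itgax averaged 1 FPKM or more, at 17.28, 11.89 and 24.64 FPKM. In the other direction, 8 macrophage markers summed to 642.68, 659.71 and 239.76 FPKM, with 8 below both AAV-Ctrl libraries and 6 at least 1 lower, and lower macrophage markers thus stood beside lower Ctsb, Lgmn, Ctsc and Ctsk. Erythroid markers summed to 14595, 9731 and 1662 FPKM, with 6 of 6 at least 1 lower, and also differed between the AAV-Ctrl libraries. B-cell markers summed to 25.93, 32.59 and 3.87 FPKM, with all 4 that averaged 1 FPKM or more lower by at least 1. T and NK cell markers (9 genes) summed to 10.27, 11.62 and 13.19 FPKM, and eosinophil, basophil and mast cell markers (8 genes) to 24.02, 27.54 and 23.78 FPKM. None of these marker genes was listed at 0 in AAV-IL-27. As FPKM is relative to all fragments of a library, 8 genes used by every cell were followed as well, and they summed to 9600, 9741 and 9529 FPKM with a median difference of -0.15. Rescaled to equal FPKM totals, the stefin A sum stayed above both AAV-Ctrl libraries.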

How the data were processed

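RNA-seq values of BM Ly6G+ cells were analysed for 2 AAV-Ctrl libraries and 1 AAV-IL-27 library, grouped by the sample labels. The design text gives 4 mice but lists 2 with AAV-Ctrl and 1 with AAV-IL-27. A further 1 column of per-sample values carries the name of another AAV-IL-27 replicate but could not be matched to a listed sample, so it was left aside and AAV-IL-27 is represented here by 1 library. The authors deposited FPKM values to 2 decimals in 16073 rows, and 1 row without a symbol was dropped. The submitters' processing notes name mm10. The aligner, the counting tool, the read length and the authors' choice of listed genes are not given in the sources used here.

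Differences were computed as log2(FPKM + 1) of AAV-IL-27 less the AAV-Ctrl mean. A gene counted as higher or lower when it differed by at least 1, or at least 0.5, from each AAV-Ctrl library, over genes averaging 1 FPKM or more. FPKM is not a count, and 1 library gives no replicate error, so no test was run. Depth was estimated from the FPKM steps of 10934 genes with a single transcript, with 70 nt subtracted from each length. It placed 71.4%, 71.2% and 70.2% of 651, 614 and 617 low values within 0.15 of whole fragments, so fragment numbers are estimates. Poisson intervals are exact, at the 95% level. Only the depth estimate was tried on simulated data. The values were simulated from the fitted depths, so this checks recovery of a depth and not the fit to the deposited values. Sequences and identities came from the mouse reference (GENCODE M21 and RefSeq, GRCm38). The 8 genes and the gene lists were chosen with earlier results of these data known. All 8 genes are described. Listed relatives, proteases and inhibitors may be named, and neighbouring genes at a difference of at least 1, with Cd86 and Parp14 added after their values were seen. The alternatives were other pseudocounts, scalings, filters and thresholds, and leaving out each AAV-Ctrl library. Calculations used Biopython 1.88, scipy 1.17.1, pandas 2.3.3 and numpy 2.4.6 under Python 3.11.15, with matplotlib 3.10.9 for plots.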

Additional observations from a re-analysis of the deposited data

How the results depend on the processing

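The stefin A sum was above each AAV-Ctrl library used under each of 6 alternatives, with differences from 0.52 to 0.66. Of the 8 genes, 7 were above in each, against 38.7% to 48.7% of all genes. Only the scalings could have changed these positions. Other pseudocounts keep the order of values, and a value above or below both AAV-Ctrl libraries stays so against either. Of 66 alternative values for single genes and sums, 57 stayed within 1 SD of the AAV-Ctrl libraries and 9 did not, all without a change of sign. Values that left out an AAV-Ctrl library could only stay within 1 SD, because dropping 1 of 2 libraries always shifts the difference by less than their SD. They are among the 57 and say nothing of stability. The count of the 8 genes at least 0.5 higher was 2, and 1.57% of all genes passed. Equal FPKM totals gave 5 of the 8 and 1.85% of all genes, and a pseudocount of 0.01 gave 3 and 2.31%. Leaving out AAV-Ctrl 1 gave 6 and 2.57%, and leaving out AAV-Ctrl 2 gave 2 and 2.44%. The count stayed at 2 with a pseudocount of 0.1 (2.20% of all genes) and with median-ratio scaling (1.55%). These alternatives for the count were chosen after seeing the data. At a threshold of 1 the count was 0, and at 0.5 it was 2. Over all genes, the 212 lower genes became 396 and 425 with pseudocounts of 0.1 and 0.01, 93 with genes averaging 5 FPKM or more and 640 at a threshold of 0.5. The 28 higher genes became 46 with a pseudocount of 0.01, 143 at a threshold of 0.5, and 40 to 49 when either AAV-Ctrl library was left out (49 without AAV-Ctrl 2). These follow from looser or stricter settings. No paired analysis was possible, as the labels do not say that replicate numbers mark pairs of mice. With 1 AAV-IL-27 library analysed, the spread of that group was not measured here, and levels of near-identical copies can be read only as sums.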

Other observations

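Inhibitors of other protease classes were measured in the same libraries. Of 20 such genes listed, 19 were in the table and 10 averaged 1 FPKM or more, of which 3 were above both AAV-Ctrl libraries, 5 were below both and 3 were at least 0.5 lower than each. Over all 9130 genes the shares were 38.9%, 41.9% and 7.01%. Wfdc17, a small protein with a whey acidic protein domain expressed by macrophages, was at 75.05, 48.99 and 15.76 FPKM, with the AAV-IL-27 library last as in all values here, a difference of -1.88, and the AAV-Ctrl libraries also differed from each other. Serpinb6a, an intracellular serpin that inhibits cathepsin G, was at 34.59, 33.11 and 18.95 FPKM (-0.80). Serping1, the inhibitor of complement C1, was at 1.06, 1.58 and 0.38 FPKM (-0.74). Macrophage markers were lower in AAV-IL-27 as well, and their part in these differences was not tested.

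The abundant inhibitors of neutrophil serine proteases differed less. Slpi, the secretory leukocyte protease inhibitor, was at 761.57, 808.86 and 821.71 FPKM (0.07), and Serpinb1a, an intracellular inhibitor of neutrophil elastase, was at 181.69, 178.25 and 155.21 FPKM (-0.21). Timp2, an inhibitor of matrix metalloproteinases, was at 134.26, 133.95 and 141.69 FPKM (0.08). Of the 10, 0 were at least 0.5 higher than both AAV-Ctrl libraries, and over all genes the share was 1.57%.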
